A study of Homo sapiens with 8 samples.

Results

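MYC and MYB were described here in THP-1, a human cell line grown out of an acute monocytic leukaemia and known for its MLL-AF9 fusion. MYB lies on chromosome 6 and MYC on chromosome 8. The members were every probe whose platform gene symbol is MYC or MYB, which gave 1 probe for each gene (17072669 for MYC and 17012804 for MYB), that is 2 of the 14884 named genes of the table. Expression was measured on 1-colour Affymetrix arrays as log2 values after 5 h of treatment, in 2 arrays of cells given 6 µg/mL IPA-3, 2 arrays of cells given 2 µg/mL FRAX-597 and 4 arrays of cells given only DMSO, the solvent, at matched volume. IPA-3 is an allosteric and FRAX-597 an ATP-competitive inhibitor of the p21-activated kinases (PAKs), and the study concerned PAK1 as a drug target in myeloid leukaemia. All arrays are of the same line, with no genetic change between groups, and nothing in the labels names separate cultures. The p-values therefore rest on array-to-array spread that may be technical, and in such bulk RNA fewer cells of a kind and less RNA per cell cannot be told apart.

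MYC and MYB are nuclear transcription factors that drive the growth of blood progenitors and of leukaemia cells. MYC binds DNA as a pair with MAX at the E-box sequence CACGTG and raises genes of ribosome assembly, nucleotide synthesis and cell division, while MXD proteins and MNT compete with it for MAX. MYB, the founding member of the MYB family, holds blood cells in the progenitor state, falls as myeloid cells mature, and is required by leukaemias with MLL fusions. The messenger RNAs of both genes turn over quickly, so their levels can follow a change in transcription within hours.

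The promoters below are shown because the results turn on MYB and on the 3 MYC-activated targets with the smallest p for FRAX-597, namely NOP16, RCL1 and NIP7. Each run of 300 bases spans the RefSeq start site in GRCh38.p14, on the gene's own strand. Capitals mark the E-box CACGTG or the E2F site TTTGGCGG, each searched on both strands. MYB lies at chr6:135181058-135181357 (plus strand), NOP16 at chr5:176388549-176388848 (minus strand), RCL1 at chr9:4792694-4792993 (plus strand) and NIP7 at chr16:69339522-69339821 (plus strand).
MYB: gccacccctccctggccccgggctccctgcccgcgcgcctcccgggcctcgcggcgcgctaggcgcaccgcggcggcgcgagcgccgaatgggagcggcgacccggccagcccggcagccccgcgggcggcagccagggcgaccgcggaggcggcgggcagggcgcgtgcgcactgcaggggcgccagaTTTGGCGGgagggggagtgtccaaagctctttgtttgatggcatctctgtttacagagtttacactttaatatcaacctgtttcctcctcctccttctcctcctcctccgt
NOP16: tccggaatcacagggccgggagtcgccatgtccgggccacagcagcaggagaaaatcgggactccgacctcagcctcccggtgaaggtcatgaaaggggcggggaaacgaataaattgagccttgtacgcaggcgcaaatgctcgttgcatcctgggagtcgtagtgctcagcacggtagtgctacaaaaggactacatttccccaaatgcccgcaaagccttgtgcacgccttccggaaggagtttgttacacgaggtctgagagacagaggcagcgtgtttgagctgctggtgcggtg
RCL1: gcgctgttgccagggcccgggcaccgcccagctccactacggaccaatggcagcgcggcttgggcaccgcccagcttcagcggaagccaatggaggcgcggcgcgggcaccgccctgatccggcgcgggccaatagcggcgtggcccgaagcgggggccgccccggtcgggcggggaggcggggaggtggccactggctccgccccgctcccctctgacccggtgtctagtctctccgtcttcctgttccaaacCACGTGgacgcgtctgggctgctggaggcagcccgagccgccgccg
NIP7: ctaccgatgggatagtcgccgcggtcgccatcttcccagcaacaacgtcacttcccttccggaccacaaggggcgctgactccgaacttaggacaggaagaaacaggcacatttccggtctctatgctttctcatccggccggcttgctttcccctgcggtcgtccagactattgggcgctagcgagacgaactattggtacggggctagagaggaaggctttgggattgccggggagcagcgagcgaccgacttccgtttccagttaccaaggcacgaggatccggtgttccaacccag
The MYB window held 1 E2F site, which began at position -61 from the start site, and 0 E-boxes. The RCL1 window held 1 E-box, whereas the NOP16 and NIP7 windows held 0. Over all 35116 promoters of the same length, 7.26% held an E-box and 0.652% held the E2F site. Among the 30 measured MYC-activated targets of the list used below, 23 had a promoter in the table and 12 of those held an E-box. The other lists used below held it in 4 of 14 promoters of MYC partners, 3 of 16 of MYC controllers and 2 of 7 of MYC-repressed targets. It was in 2 of 7 promoters of MYB relatives and cofactors, 2 of 14 of MYB targets, 1 of 9 of the MLL-fusion programme and 2 of 9 of monocyte maturation. A match of letters is a description and no measure of binding.

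The 8 arrays lay in 2 sets on different scales. IPA-3 1, IPA-3 2, DMSO 1 and DMSO 2 had medians over all probes between 5.51 and 5.55, and FRAX-597 1, FRAX-597 2, DMSO 3 and DMSO 4 between 6.00 and 6.05. Each compound was therefore compared with the 2 DMSO arrays that share its scale, in 1 limma fit with 4 groups. The labels do not make this split of the DMSO arrays. Of 7 measured markers of a monocytic line, 6 (CSF1R, LYZ, CD68, CTSG, SPI1 and CSF3R) lay above the array median of all genes on all 8 arrays. MPO did not. Of the measured markers of other cell types, 1 of 4 for T cells (CD4, which monocytes also express), 0 of 2 for B cells, 0 of 3 for erythroid cells, 1 of 5 for epithelium (KRT18) and 0 of 2 for fibroblasts did so.

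MYB lay lower with both compounds. It had values of 9.75 and 9.75 with IPA-3, against 10.65 and 10.58 in DMSO 1 and 2. With FRAX-597 it had 10.12 and 9.97, against 10.98 and 10.97 in DMSO 3 and 4. In each set both compound arrays lay below both DMSO arrays, with a distance several times the gap between the arrays of a group.

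MYC lay farther below its DMSO arrays with FRAX-597 than with IPA-3. With IPA-3 it had values of 8.56 and 8.50, against 8.72 and 8.70 in DMSO 1 and 2. With FRAX-597 it had 7.43 and 7.85, against 8.51 and 8.51 in DMSO 3 and 4. Both compound arrays lay below both DMSO arrays in each set here too, but the IPA-3 distance was small and the FRAX-597 arrays differed from each other by 0.42, whereas DMSO 3 and 4 differed by 0.0063. Compound arrays below DMSO arrays were common among all genes, at 28.3% for IPA-3, 17.8% for FRAX-597 and 5.97% in both comparisons, so the order of the arrays alone marks neither gene out.

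**Figure D1:**
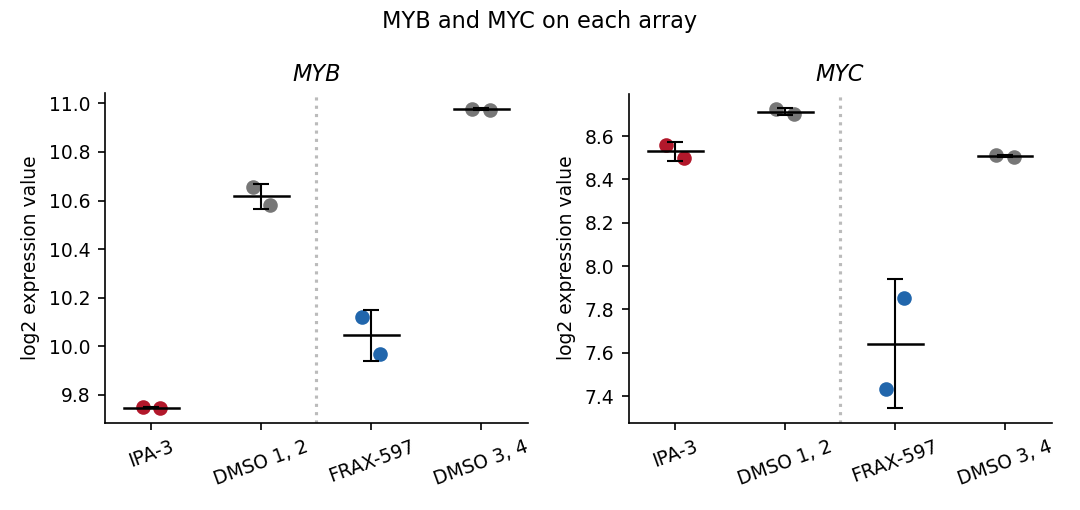
Log2 expression value (vertical axis) of MYB and MYC on each of the 8 arrays, with each compound left of the DMSO arrays of its own set (dotted line between the sets; the axes do not start at 0). Points are arrays, bars the mean and SD of 2 arrays. MYB lay at 9.75 with IPA-3 and 10.04 with FRAX-597 on average, against 10.62 and 10.97 in the matching DMSO arrays, while MYC lay at 8.53 and 7.64 against 8.71 and 8.51.

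MYB fell with FRAX-597. It averaged 10.04 ± 0.11 with FRAX-597 and 10.97 ± 0.0041 in DMSO 3 and 4 (SD, n = 2 each), a log2 change of -0.93 (SE 0.11; limma adjusted p = 0.029 over all genes). That put its level at 52.5% of that in DMSO (95% confidence interval 44.3% to 62.2%). Over all genes 0.155% were called for FRAX-597, and 0.0336%, 5 genes with MYB among them, were called lower. In the order of changes MYB stood at place 17 from the lowest of 14884 genes, and 1 of the 500 genes nearest to it in mean level had a lower change. The call held only when the array left out was FRAX-597 2. The limma adjusted p was 0.134 after removal of DMSO 1 or DMSO 2 and 0.137 after removal of IPA-3 1 or IPA-3 2. It was 0.154 after removal of DMSO 3, 0.149 after removal of DMSO 4 and 0.0548 after removal of FRAX-597 1, and the changes stayed between -1.004 and -0.86. It also ended when only the 4 arrays of the FRAX-597 set were fitted (limma adjusted p = 0.769), where the same change of -0.93 was held against the spread of 4 arrays only.

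MYB with IPA-3 had a change of nearly the same size that missed the threshold. It averaged 9.75 ± 0.0015 with IPA-3 and 10.62 ± 0.051 in DMSO 1 and 2 (SD, n = 2 each). The log2 change was -0.87 (SE 0.11; limma adjusted p = 0.0941), which is 54.7% of the DMSO level (95% confidence interval 46.1% to 64.9%). It stood at place 11 from the lowest of 14884 genes, and 0 of the 500 genes nearest in level had a lower change. By unadjusted p it was at place 8 of all genes, where 0.0336% of genes passed the adjusted threshold and 0.00672%, that is CYSLTR1, passed it lower. When only the 4 arrays of the first set were fitted, MYB passed (limma adjusted p = 0.0295). It did not pass with pooled DMSO arrays (-1.05, limma adjusted p = 0.546), with quantile normalization (-0.81, 0.124) or with every probe tested (-0.87, 0.231). MYB with IPA-3 passed in 5 of 16 alternatives. The change stayed between -0.91 and -0.83 when 1 array was left out. The FRAX-597 arrays enter the IPA-3 comparison only through the shared estimate of the spread.

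MYC with FRAX-597 had a change close to that of MYB, with a wider spread. It averaged 7.64 ± 0.30 with FRAX-597 and 8.51 ± 0.0045 in DMSO 3 and 4 (SD, n = 2 each). The log2 change was -0.87 (SE 0.15; limma adjusted p = 0.132), or 54.9% of the DMSO level (95% confidence interval 43.3% to 69.5%). It stood at place 25 from the lowest of 14884 genes, and 0 of the 500 genes nearest in level had a lower change. Without FRAX-597 2, the array with the smaller distance, the change was -1.08, and without FRAX-597 1 it was -0.66. With the 4 DMSO arrays pooled it was -0.97 and did not pass (limma adjusted p = 0.235).

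MYC with IPA-3 was not distinguishable from its DMSO level. It averaged 8.53 ± 0.042 with IPA-3 and 8.71 ± 0.014 in DMSO 1 and 2 (SD, n = 2 each), a log2 change of -0.18 (SE 0.15; limma adjusted p = 0.84). The 95% confidence interval ran from -0.53 to 0.16 and so held both no change and a fall to 69.5% of the DMSO level. Its place was 2678 from the lowest of 14884 genes.

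The changes with the compounds were then set against each other, each taken within its own array set. The doses differed (6 and 2 µg/mL) and so did the arrays' scales, so these are differences between responses and not between compounds at 1 dose. For MYB the FRAX-597 change minus the IPA-3 change was -0.06 (SE 0.15; limma adjusted p = 0.98), with a 95% confidence interval from -0.41 to 0.29. It turned to 0.0145 without FRAX-597 2 and to 0.30 with the 4 DMSO arrays pooled. For MYC the difference was -0.68 (SE 0.21; limma adjusted p = 0.674), with a 95% confidence interval from -1.16 to -0.20 that is not adjusted for the number of genes. The MYC difference thus did not pass over all genes, of which 0.0134% passed.

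Averaged over both compounds, a contrast added after the data were examined, MYB fell by 0.90 on the log2 scale (SE 0.074, limma adjusted p = 0.0135). MYB lay lower on 4 of 4 compound arrays than on the DMSO arrays of the same set, as did 5.97% of all genes. By unadjusted p it stood at place 3 of 14884 genes and at place 1 of those that were lower, where 0.114% of genes were called and 0.0269% were called lower. This call ended after removal of DMSO 1 (0.145), DMSO 2 (0.119), IPA-3 1 (0.166), IPA-3 2 (0.11) or DMSO 3 (0.0635), with the mean change between -0.94 and -0.86 throughout. For MYC the average was -0.53 (SE 0.10; limma adjusted p = 0.199), and it was called without FRAX-597 2 (-0.63, limma adjusted p = 0.0167). An exact two-sided permutation of compound and DMSO arrays within the sets gave p = 0.0556 for each gene, the smallest value that its 36 assignments allow. Within 1 set of 2 against 2 arrays the smallest is 0.333.

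**Figure D2:**
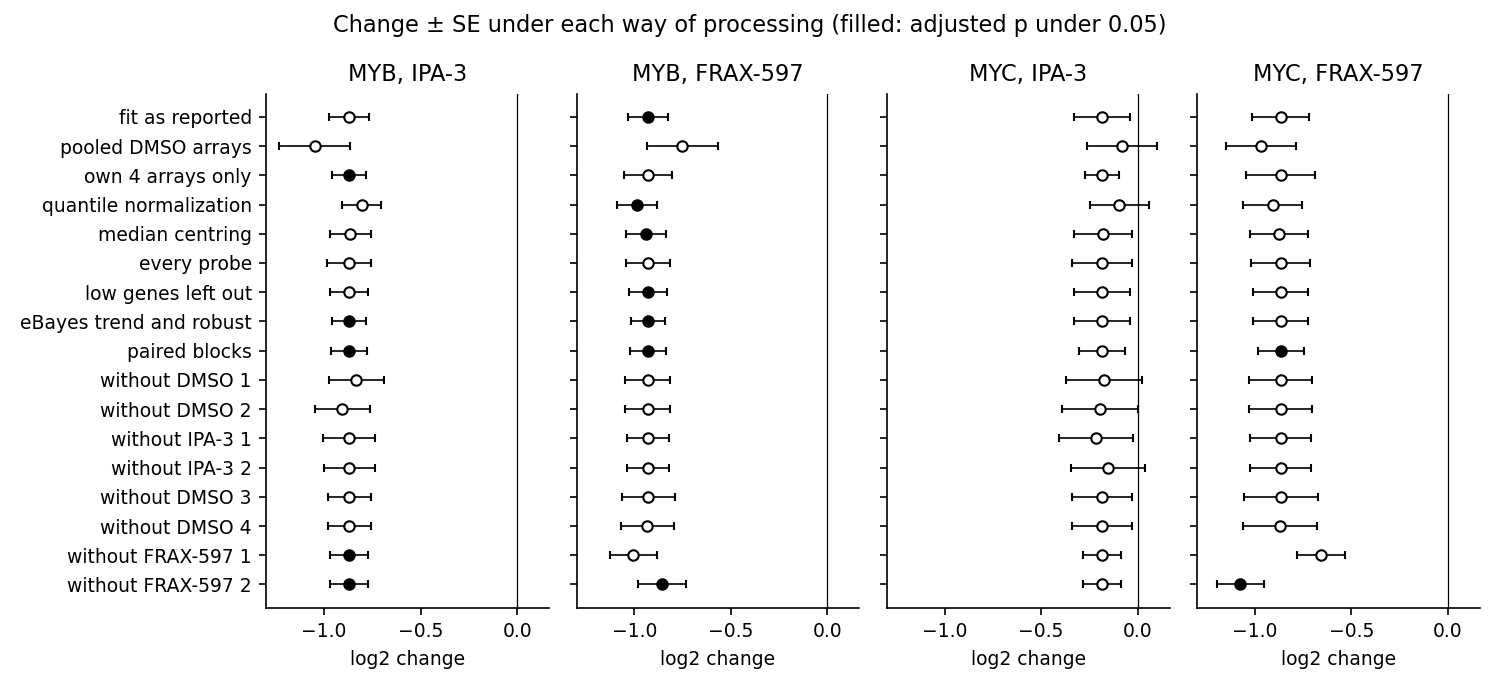
Log2 change (horizontal axis, points with SE) of MYB and MYC for each compound in the fit as reported and under each other way of processing (down the page), with filled points where the limma adjusted p over all genes was under 0.05. All points lie below 0, MYB with IPA-3 between -1.05 and -0.81 and MYC with IPA-3 between -0.21 and -0.08 under the alternatives.

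Only CCR2, a chemokine receptor, and CYSLTR1, a leukotriene receptor, matched or passed the change of MYB in both comparisons among the 14884 genes. CCR2 had log2 changes of -1.39 with IPA-3 (SE 0.36; limma adjusted p = 0.526) and -1.52 with FRAX-597 (SE 0.36; limma adjusted p = 0.279). CYSLTR1 had -1.41 (SE 0.14; limma adjusted p = 0.043) and -0.97 (SE 0.14; limma adjusted p = 0.0695). The CYSLTR1 call with IPA-3 ended in 11 of 16 alternatives, with limma adjusted p of 0.878 without DMSO 1, 0.392 without DMSO 2, 0.531 without IPA-3 1, 0.444 without IPA-3 2 and 0.116 without DMSO 3 or DMSO 4. CYSLTR1 with FRAX-597 was called without FRAX-597 2 (-1.16, 0.0117). CCR2 with FRAX-597 was -0.88 without DMSO 3 (0.392), and -2.15 and called without DMSO 4 (0.0394). MYB had a smaller SE than either gene.

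**Figure D3:**
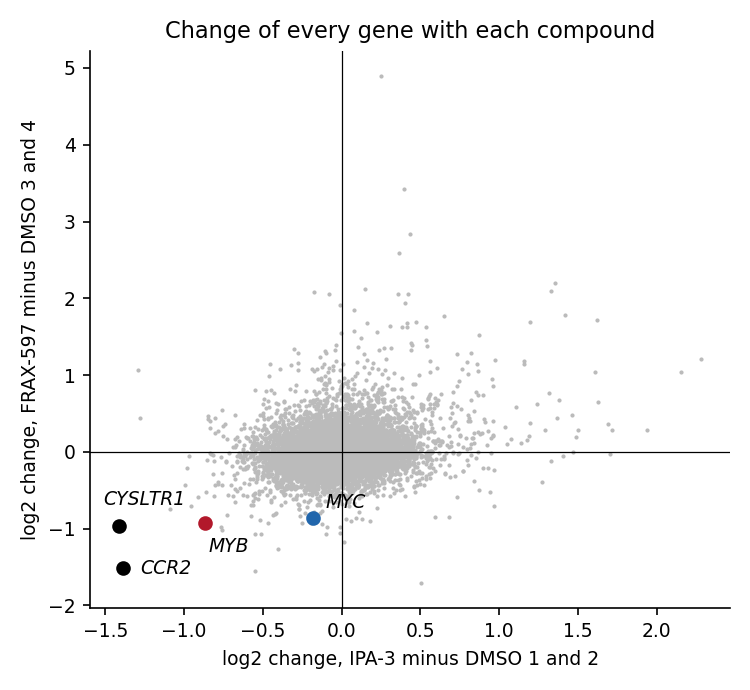
Log2 change of each of 14884 genes with IPA-3 against DMSO 1 and 2 (horizontal axis) and with FRAX-597 against DMSO 3 and 4 (vertical axis). MYB sits low on both axes (-0.87 and -0.93) near CYSLTR1 and CCR2, and MYC sits low on the vertical axis (-0.18 and -0.87).

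The DMSO arrays of the sets placed the genes differently. MYC was 0.20 lower in DMSO 3 and 4 than in DMSO 1 and 2, although the median over all genes was 0.48 higher there, which left it at -0.68 relative to all genes. MYB was 0.36 higher, or -0.12 relative to all genes. The share of genes with a lower value on the same array gives a reading that is free of the scale. For MYC it was 59.8% and 68.2% with FRAX-597 against 78.9% and 79.4% in DMSO 3 and 4, and 84.8% and 85.0% with IPA-3 against 86.2% and 85.8% in DMSO 1 and 2. For MYB it was 95.3% and 94.9% with FRAX-597 against 98.6% and 98.7% in DMSO 3 and 4, and 95.2% and 95.4% with IPA-3 against 98.4% and 98.2% in DMSO 1 and 2. Probes differ in how strongly they bind, so these shares compare arrays for 1 gene and not MYC with MYB.

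Genes of microRNAs known to target MYB were also on the arrays, as probes for the gene and not for the mature strand. The mature sequences are shown because those printed fall by seed (bases 2 to 8, in capitals) into a family with AGCAGCA, miR-503 with AGCAGCG, and miR-34a with GGCAGUG. MIR150 is named only.
hsa-miR-15a-5p: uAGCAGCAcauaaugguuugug
hsa-miR-15b-5p: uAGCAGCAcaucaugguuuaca
hsa-miR-16-5p: uAGCAGCAcguaaauauuggcg
hsa-miR-424-5p: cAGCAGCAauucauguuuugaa
hsa-miR-503-5p: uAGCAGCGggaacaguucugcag
hsa-miR-34a-5p: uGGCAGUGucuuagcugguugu
The sequences are from RefSeq (GRCh38.p14). Of the 8 measured genes (MIR150 and the 16-5p genes MIR16-1 and MIR16-2 among them), 0 were called with either compound. Over all genes 0.0336% were called with IPA-3 and 0.155% with FRAX-597. MIR15B had the largest change, 0.69 with IPA-3 (SE 0.165; limma adjusted p = 0.496) and -0.33 with FRAX-597 (SE 0.165; limma adjusted p = 0.737). Its values were 5.34 and 5.57 with IPA-3 against 4.99 and 4.54 in DMSO 1 and 2. The DMSO values lay under the lower quartile of genes, so the level there is not shown to be above background. MIR150 had -0.03 with each compound (SE 0.16), but it lay under the lower quartile of genes on 3 of 8 arrays. MIR16-1 lay there on 6 of 8 arrays and MIR16-2 on 3 of 8. Of 5 measured microRNA genes known to target MYC, 0 were called either way. MIR34A, MIR34B, MIR34C and MIRLET7C lay under the lower quartile of genes on all 8 arrays and MIRLET7A1 on 5 of 8, so a change in them could not be read. MIR17HG, the host of a cluster that MYC activates, had -0.14 with IPA-3 (SE 0.15) and -0.08 with FRAX-597 (SE 0.15). MIR155, whose host gene MYB is known to activate, had 0.16 (SE 0.11; limma adjusted p = 0.799) with IPA-3 and -0.32 (SE 0.11; limma adjusted p = 0.553) with FRAX-597.

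The measured genes either side of MYB, HBS1L and AHI1, did not pass in either comparison. HBS1L, a translation quality factor whose intergenic region with MYB is known to hold MYB enhancers, had changes of -0.10 with IPA-3 (SE 0.15) and -0.14 with FRAX-597 (SE 0.15). AHI1, a gene of the primary cilium, had 0.05 (SE 0.10) and 0.19 (SE 0.10). The lowest limma adjusted p among these was 0.767. Next to MYC, POU5F1B and GSDMC had values between 3.39 and 4.81 on all arrays and changes between -0.24 and -0.06, with a lowest limma adjusted p of 0.715. All of their values lay under the lower quartile of genes on their array (5.10 to 5.15 in the first set and 5.69 to 5.71 in the second), so a change there could not be read.

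MYC partners and competitors had no called member in either comparison. Over all genes 0.0336% were called with IPA-3 and 0.155% with FRAX-597. At those shares 0 called is the usual outcome for a list of this size. The counts of called genes here and in the lists below therefore say little about the members. Of 17 measured members of the list, 0 were called. Those below 0 numbered 13 with IPA-3 (median -0.12) and 6 with FRAX-597 (median 0.03). Among all genes, 55.6% lay below 0 with IPA-3 and 54.7% with FRAX-597, with a median of -0.02 for each compound. MXD1, which competes with MYC for MAX, had 9.41 and 8.64 with FRAX-597, against 7.88 and 7.93 in DMSO 3 and 4. Both FRAX-597 arrays lay above both DMSO arrays, as in 13% of all genes, and FRAX-597 1, which was also lower in MYC, lay farther. The log2 change of MXD1 was 1.12 (SE 0.23; limma adjusted p = 0.203) with FRAX-597 and -0.06 (SE 0.23; limma adjusted p = 0.99) with IPA-3. MXD1 with FRAX-597 was 1.503 and called without FRAX-597 2 (limma adjusted p = 0.006), and 0.73 and not called without FRAX-597 1 (limma adjusted p = 0.156). MNT, another competitor, had 0.29 (SE 0.12) with FRAX-597 and 0.22 (SE 0.12) with IPA-3, and MAX itself 0.03 (SE 0.11) and -0.12 (SE 0.11). RUVBL2, an ATPase that works with MYC at chromatin, had -0.38 (SE 0.19; limma adjusted p = 0.735) with IPA-3.

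Genes whose proteins set the transcription or the stability of MYC were likewise not called, 0 of 19 with either compound, with medians of -0.0047 for IPA-3 and 0.0095 for FRAX-597. PIM1, a kinase that stabilises MYC, had values of 7.42 and 7.19 with IPA-3 against 6.86 and 6.65 in DMSO 1 and 2, and 8.07 and 7.68 with FRAX-597 against 7.18 and 7.45 in DMSO 3 and 4. It lay higher on every compound array, an order seen in 19.3% of all genes with IPA-3 and 13% with FRAX-597, with changes of 0.55 (SE 0.18; limma adjusted p = 0.591) and 0.56 (SE 0.18; limma adjusted p = 0.459). AURKA, a mitotic kinase that protects MYC proteins, had 0.35 (SE 0.14; limma adjusted p = 0.607) with FRAX-597. Transcripts for the BET proteins BRD2 and BRD3 and the elongation kinase CDK9, on which MYC transcription depends, had changes between -0.16 and 0.15.

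Among genes that MYC activates, nearly all lay lower with FRAX-597. Of 30 measured, 29 lay below 0 with a median of -0.26, against 54.7% of all genes and a median of -0.02. Only NOP16 was called, where 0.155% of all genes were called for FRAX-597. With IPA-3, 22 of 30 lay below 0 with a median of -0.14, against 55.6% of all genes, and 0 were called. At an unadjusted limma p under 0.05, 11 were lower and 1 higher with FRAX-597, and 4 were lower and 1 higher with IPA-3, where 7.66% and 7.21% of all genes passed in either direction. The median with FRAX-597 was -0.40 without FRAX-597 1 and -0.15 without FRAX-597 2. The median with IPA-3 was -0.06 without IPA-3 2 and -0.07 after quantile normalization, with -0.18 as its lowest value, without IPA-3 1.

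The 3 targets with the smallest p for FRAX-597 encode nucleolar proteins of ribosome assembly. NOP16 had 7.56 and 7.67 with FRAX-597, against 8.64 and 8.56 in DMSO 3 and 4, and fell by 0.98 on the log2 scale (SE 0.11; limma adjusted p = 0.029). The call of NOP16 ended when any array other than FRAX-597 2 was left out (limma adjusted p between 0.0847 and 0.154). It also ended with the FRAX-597 set fitted by itself (0.769), with the 4 DMSO arrays pooled (0.604) and with every probe tested (0.106). RCL1 had 6.75 and 6.77 with FRAX-597 against 7.37 and 7.43 (log2 change -0.64, SE 0.10; limma adjusted p = 0.0876). NIP7 had 9.63 and 9.66 with FRAX-597 against 10.21 and 10.30 (log2 change -0.61, SE 0.11; limma adjusted p = 0.151). In all 3 genes the FRAX-597 arrays lay closer to each other than in MYC itself. With IPA-3 the changes of NOP16, RCL1 and NIP7 were -0.09, -0.01 and -0.15, each with an SE of 0.10 to 0.11.

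Other MYC-activated genes lay lower with both compounds. UNG, a DNA repair glycosylase, had -0.58 with IPA-3 (SE 0.13; limma adjusted p = 0.454) and -0.42 with FRAX-597 (SE 0.13; limma adjusted p = 0.452). CDCA7, a chromatin factor of dividing cells, had -0.70 (SE 0.19; limma adjusted p = 0.526) and -0.43 (SE 0.19; limma adjusted p = 0.661). APEX1, an endonuclease of base excision repair, had -0.47 (SE 0.13; limma adjusted p = 0.526) and -0.39 (SE 0.13; limma adjusted p = 0.471). The exception with FRAX-597 was SHMT2, a mitochondrial enzyme of serine metabolism that ATF4 also activates, at 0.67 (SE 0.24; limma adjusted p = 0.553), named after its value was seen.

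The measured genes that MYC represses lay on the other side of 0 with FRAX-597 by their median, with 0 of 8 called. Of the 14 listed, CDKN1A, CDKN1B, CDKN2B, GADD45A, CEBPA and FTH1 were not measured. Of the 8 measured, 6 lay above 0 with a median of 0.52, where 54.7% of all genes lay below 0. An unadjusted limma p under 0.05 was found for 3, all higher, against 7.66% of all genes in either direction. NDRG2 (-0.24, SE 0.16) and GAS1 (-0.28, SE 0.38) lay below 0 with FRAX-597, and TXNIP had 0.05 (SE 0.12). The median was 0.94 without DMSO 3, 0.09 without DMSO 4, 0.13 without FRAX-597 1 and 0.90 without FRAX-597 2. CCNG2, a cyclin of growth arrest, had 7.88 and 7.38 with FRAX-597 against 6.65 and 6.54 in DMSO 3 and 4 (log2 change 1.04, SE 0.17; limma adjusted p = 0.107). CCNG2 was 1.29 and called without FRAX-597 2 (limma adjusted p = 0.00921), and 0.79 without FRAX-597 1 (limma adjusted p = 0.118). SESN2 and DDIT3, which are also targets of ATF4, had 1.67 (SE 0.45; limma adjusted p = 0.355) and 1.55 (SE 0.61; limma adjusted p = 0.611). For DDIT3 the arrays were 9.26 and 7.17 with FRAX-597 against 7.13 and 6.21 in DMSO 3 and 4, so FRAX-597 2 lay near DMSO 3. Without FRAX-597 2 the changes were 2.43 for SESN2 (limma adjusted p = 0.0135) and 2.59 for DDIT3 (limma adjusted p = 0.0191). Without FRAX-597 1 they were 0.92 for SESN2 (limma adjusted p = 0.464) and 0.50 for DDIT3 (limma adjusted p = 0.77). With IPA-3, 7 of the 8 lay below 0, against 55.6% of all genes. Their median with IPA-3 was -0.14, which was -0.29 without IPA-3 1 and -0.02 without IPA-3 2.

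Relatives and cofactors of MYB had no called member. Of 12 measured, 0 were called with either compound, and the medians were -0.0040 with IPA-3 and -0.21 with FRAX-597 (-0.08 without FRAX-597 1 and -0.36 without FRAX-597 2). MYBL2, the family member of dividing cells, had -0.22 with IPA-3 (SE 0.11; limma adjusted p = 0.742) and -0.06 with FRAX-597 (SE 0.11; limma adjusted p = 0.991). MYBL1 had -0.08 (SE 0.21) and -0.43 (SE 0.21). MYBBP1A, a nucleolar protein that binds MYB, had a change near 0 with IPA-3 and -0.43 with FRAX-597 (SE 0.11; limma adjusted p = 0.313). HIPK2, a kinase that marks MYB for degradation, had 9.97 and 10.06 with IPA-3, against 9.10 and 9.07 in DMSO 1 and 2 (log2 change 0.93, SE 0.14; limma adjusted p = 0.182). HIPK2 with IPA-3 was called with the 4 arrays of the first set alone (limma adjusted p = 0.025), and over all 16 alternatives its limma adjusted p ran between 0.025 and 1. With FRAX-597 HIPK2 had -0.21 (SE 0.14). The coactivators CREBBP and EP300 had changes between 0.09 and 0.20.

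Genes known to be activated by MYB had 0 of 16 called with either compound, where 0.0336% of all genes were called with IPA-3 and 0.155% with FRAX-597. Of these 16 genes, those below 0 numbered 8 with IPA-3 (median -0.05) and 11 with FRAX-597 (median -0.09). Among all genes, 55.6% lay below 0 with IPA-3 and 54.7% with FRAX-597. BCL2, which blocks apoptosis, had 8.991 and 9.004 with IPA-3 against 9.48 and 9.56 in DMSO 1 and 2, and 8.31 and 8.18 with FRAX-597 against 8.513 and 8.999 in DMSO 3 and 4. It lay lower on every compound array, an order seen in 5.97% of all genes. The changes of BCL2 were -0.52 (SE 0.16, limma adjusted p = 0.57) and -0.51 (SE 0.16, limma adjusted p = 0.46). LMO2, a bridge between transcription factors of progenitors, had -0.32 with IPA-3 (SE 0.14; limma adjusted p = 0.694) and -0.34 with FRAX-597 (SE 0.14; limma adjusted p = 0.618). CXCR4, a chemokine receptor, had -1.28 with IPA-3 (SE 0.35; limma adjusted p = 0.526) and 0.44 with FRAX-597 (SE 0.35; limma adjusted p = 0.882). CXCR4 with IPA-3 was called with the 4 arrays of the first set alone (limma adjusted p = 0.0233), and over all 16 alternatives its limma adjusted p ran between 0.0233 and 1. CCNE1, a cyclin of S phase entry, had 0.06 with IPA-3 and -0.91 with FRAX-597 (SE 0.26 each; limma adjusted p = 0.398 with FRAX-597), and with FRAX-597 was -1.30 and called without FRAX-597 2 (limma adjusted p = 0.0401) but -0.52 without FRAX-597 1 (limma adjusted p = 0.592). KIT, CD34, MPO, ELANE, AZU1, PRTN3 and CTSG are classical MYB targets of progenitors and granules. The 6 of these that were measured, which leaves out ELANE, had changes between -0.24 and 0.23.

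Of 18 listed genes of the MLL-fusion programme, which acts beside MYB in these leukaemias, 10 were measured. The HOXA genes of the list and DOT1L were not among them, so the values here do not cover them. Of the 10 measured, 0 were called, and the medians were -0.04 with IPA-3 and -0.02 with FRAX-597. MEIS1, a partner of HOXA9, had -0.03 and -0.01 (SE 0.11 each). FLT3, a receptor kinase, had -0.47 with IPA-3 (SE 0.19; limma adjusted p = 0.675) and -0.33 with FRAX-597 (SE 0.19; limma adjusted p = 0.813). ZEB2, a zinc finger repressor, had -0.51 with FRAX-597 (SE 0.15; limma adjusted p = 0.385).

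Genes that rise as monocytes mature, when MYB normally falls, were not called either, with 0 of 9 for each compound. Those above 0 numbered 3 with IPA-3 and 4 with FRAX-597, where 55.6% and 54.7% of all genes lay below 0. The median with FRAX-597 was -0.01 and changed sign with the array left out, at -0.31 without DMSO 4, -0.21 without FRAX-597 1, 0.09 without DMSO 3 and 0.25 without FRAX-597 2. EGR1, an early growth response factor that promotes monocytic maturation, had 8.41 and 8.33 with IPA-3 against 9.33 and 9.32 in DMSO 1 and 2, and 8.68 and 9.15 with FRAX-597 against 9.58 and 9.66 in DMSO 3 and 4. Its changes were -0.96 (SE 0.16; limma adjusted p = 0.256) and -0.70 (SE 0.16; limma adjusted p = 0.241). EGR1 was called for IPA-3 without FRAX-597 1 or FRAX-597 2 (limma adjusted p = 0.0322 each) and for FRAX-597 without FRAX-597 2 (-0.94, limma adjusted p = 0.0196). Without FRAX-597 1 its FRAX-597 change was -0.47 (limma adjusted p = 0.366). CD14, the monocyte receptor for lipopolysaccharide, had 0.16 and 0.17 (SE 0.27 each).

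**Figure D4:**
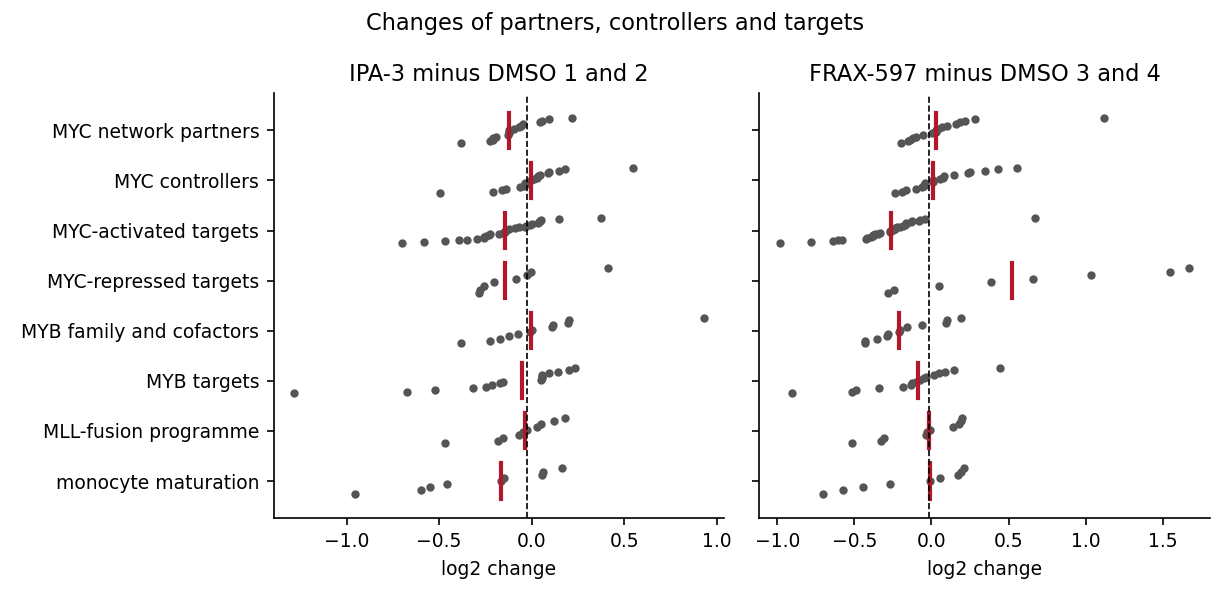
Log2 change of each measured gene (points) of 8 lists of MYC and MYB partners, controllers and targets with IPA-3 (left) and FRAX-597 (right), each minus its 2 matching DMSO arrays; vertical position within a list only spreads the points. Red bars are list medians and the dashed line the median over all genes (-0.02 in each panel). The MYC-activated targets with FRAX-597 had a median of -0.26 and the MYC-repressed targets 0.52.

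Genes whose pattern was most like that of each member were ranked by Pearson's r over the 8 arrays, after the mean of each array set was subtracted. The points share arrays and each set holds only 4, so r is a description. For MYC these were CDIN1 (r = 0.993), RRS1 (0.986), MRPL17 (0.983), URB2 (0.983) and the pseudogene ANKRD30BP3 (0.982). ANKRD30BP3 lay under the lower quartile of genes on all 8 arrays, between 3.12 and 3.90, so its pattern could not be read as expression. RRS1 and URB2 take part in ribosome assembly and MRPL17 is a protein of the mitochondrial ribosome. URB2 had 7.60 and 7.92 with FRAX-597, against 8.77 and 8.88 in DMSO 3 and 4, and fell by 1.07 on the log2 scale (SE 0.13; limma adjusted p = 0.0381). The URB2 call ended in 11 of 16 alternatives, among them the removal of any array other than FRAX-597 2 (0.0847 to 0.225), pooled DMSO arrays (-0.59, 0.604), the FRAX-597 set by itself (0.808) and quantile normalization (0.0529). RRS1 had a change of -0.80 with FRAX-597 (SE 0.12; limma adjusted p = 0.0695). As in MYC, FRAX-597 1 was the lower of the FRAX-597 arrays in these 5 genes, an order that their choice by r with MYC largely sets. The most opposed genes were GTPBP2 and LBX2, with r = -0.992 each. GTPBP2 is a GTPase of stalled ribosomes, and its change was 0.96 with FRAX-597 (SE 0.15; limma adjusted p = 0.0953).

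For MYB the most alike genes were BRI3BP (r = 0.992), RXFP1 (0.982), PREB (0.977), BICD2 (0.976) and CWC27 (0.973). BRI3BP, which encodes a membrane protein, had -0.48 with IPA-3 (limma adjusted p = 0.402) and -0.56 with FRAX-597 (limma adjusted p = 0.163). RXFP1, a relaxin receptor, had 7.55 and 7.44 with IPA-3 against 8.18 and 8.34 in DMSO 1 and 2, and 7.60 and 7.53 with FRAX-597 against 8.63 and 8.55 in DMSO 3 and 4. It fell by 1.02 with FRAX-597 (SE 0.11; limma adjusted p = 0.029) and had -0.76 with IPA-3 (limma adjusted p = 0.182). The RXFP1 call ended in 10 of 16 alternatives, among them the removal of any array other than FRAX-597 2 (0.0696 to 0.154), pooled DMSO arrays (0.333) and the FRAX-597 set by itself (0.769). PREB, which takes part in transport out of the endoplasmic reticulum, BICD2, an adaptor of the dynein motor, and CWC27, a spliceosome protein, had changes between -0.41 and -0.18. MELTF (r = -0.986) and GPRIN3 (r = -0.981) were the most opposed, with changes between 0.21 and 0.39. MYC and MYB had r = 0.782 with each other over the same 8 values.

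**Figure D5:**
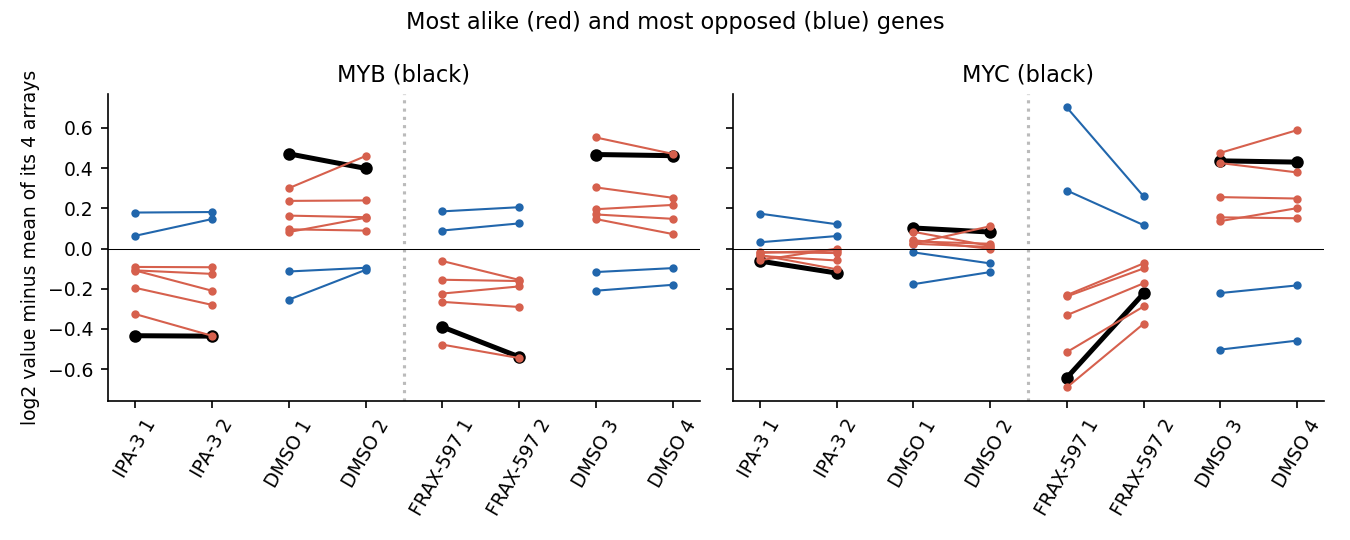
Log2 value on each array minus the mean of the 4 arrays of its set (vertical axis) for MYB (left) and MYC (right) in black, the 5 most alike genes of each in red and the 2 most opposed in blue; lines join the arrays of a group and the dotted line parts the sets. MYB and its alike genes lie low on the arrays of both compounds, while MYC and its alike genes lie lowest on the FRAX-597 arrays. The alike genes were picked by r over these same arrays, so their likeness follows from that choice.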

How the data were processed

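The authors deposited log2 expression values for 53617 probes on 8 arrays. Affymetrix Expression Console and the Transcriptome Analysis Console were used, per the submitters' processing notes. How the arrays were normalized is not stated there. The platform annotation named 1 gene for 16098 probes and none for 37519. All 16098 gene identifiers matched RefSeq (GRCh38.p14, names only). Where a gene had several probes (779 genes), the one with the highest mean was kept, which left 14884 genes.

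Changes were tested with limma 3.58.1 under R 4.3.3 (functions lmFit and eBayes) in 1 fit of IPA-3, FRAX-597, DMSO 1 and 2, and DMSO 3 and 4, with Benjamini-Hochberg adjustment over all genes and a threshold of 0.05. The procedure was tested on simulated data. The labels do not split the DMSO arrays. The sets were recognised from the values. The members, lists and comparisons were chosen with earlier results of these data known, and the lists come from general knowledge. The lists of microRNA genes and neighbours were added later. Lists were described by counts and medians over their measured genes only, with no set test. Genes were picked for naming if they were members, called, or among the 3 smallest p of a list in a comparison. The 5 most alike and 2 most opposed genes per member were picked too. Some picked genes, MLX, TRIM28, IRF8 and TLR2 among them, are not described above. Genes outside this choice were named to describe a role. Array data have no read depth, and the number of arrays limits the precision. Alternatives were pooled controls, 1 set alone, quantile normalization, median centring, every probe, no low genes, another variance model, paired blocks and leaving out each array.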

Additional observations from a re-analysis of the deposited data

Results flagged for a closer look

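PIM2, a kinase that stabilises MYC, stood apart in 1 of the 4 DMSO arrays. DMSO 4 had 8.04, whereas the other DMSO arrays lay between 7.85 and 7.87, so the gap took up 0.878 of the whole range. The 4 arrays come from both scales (the median over all genes was 0.48 higher in DMSO 3 and 4 than in DMSO 1 and 2), so this gap and range mix scale and level. The DMSO arrays of 41 genes were examined in this way, 1 stood out, and chance flags about 5%. With FRAX-597, PIM2 had 8.85 and 7.92, a log2 change of 0.43 (limma adjusted p = 0.832). That was 0.90 without FRAX-597 2 (limma adjusted p = 0.0415) and -0.03 without FRAX-597 1 (limma adjusted p = 0.975), so it rested on 1 array.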

How the results depend on the processing

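MYC and MYB stayed below their DMSO levels with each compound under all alternatives run, with changes from -1.05 to -0.81 for MYB with IPA-3, -1.004 to -0.75 for MYB with FRAX-597, -0.21 to -0.08 for MYC with IPA-3 and -1.08 to -0.66 for MYC with FRAX-597. Limma adjusted p ran from 0.0195 to 1, from 0.00645 to 0.769, from 0.386 to 1 and from 0.0123 to 1 in that order, with 5, 6, 0 and 2 of 16 alternatives called. The call of MYB with FRAX-597 was lost with pooled DMSO arrays (-0.75, limma adjusted p = 0.508), with the own 4 arrays only (-0.93, 0.769) and with every probe tested (-0.93, 0.106). MYB with IPA-3 gained a call with the own 4 arrays only, with a trended and robust variance (-0.87, 0.0362) and with the replicate block (-0.87, 0.0195). The replicate block joined DMSO 3 with FRAX-597 1 and DMSO 4 with FRAX-597 2, a pairing taken from earlier results of these data (r of the deviations 0.655 in the second set and -0.0586 in the first). It also gave MYC with FRAX-597 a call (-0.87, 0.0207) and the mean of both MYC changes (-0.53, 0.0321). The labels give the compound arrays no numbers and so pair no samples. The mean of both MYB changes, examined later, lost its call with pooled DMSO arrays (-0.90, 0.629) and with every probe (-0.90, 0.0616). The difference between the MYB changes turned to 0.2965 with pooled DMSO arrays and to 0.0145 without FRAX-597 2.

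Leaving out 1 array at a time gave -0.21 to -0.15 for MYC with IPA-3, -1.08 to -0.66 for MYC with FRAX-597, -0.89 to -0.47 for the difference between the MYC changes and -0.63 to -0.42 for their mean. For MYB it gave -0.91 to -0.83 with IPA-3, -1.004 to -0.86 with FRAX-597, -0.13 to 0.0145 for the difference and -0.94 to -0.86 for the mean. Genes called numbered 5 for IPA-3 and 23 for FRAX-597. For IPA-3 the count was 0 with pooled DMSO arrays or every probe (843 and 3416 at an unadjusted p under 0.05), 96 with the own 4 arrays, 3 with quantile normalization, 2 without low genes, 8 with a trended variance, 72 with the block and 0 to 24 when 1 array was left out (491 to 1381 at an unadjusted p under 0.05). For FRAX-597 it was 5 with pooled DMSO arrays, 0 with the own 4 arrays (606 at an unadjusted p under 0.05), 6 with every probe, 202 with the block and 2 to 227 when 1 array was left out. Fewer or more arrays change the spread by construction. Other causes were not tested. Pooling moved the median of all genes to -0.26 for IPA-3 and 0.23 for FRAX-597. Of 1900 values of named genes and list medians under alternatives, 1817 kept their side of the threshold or stayed within their spread, 33 gained a call, 42 lost one (all of NOP16, URB2, RXFP1 or CYSLTR1) and 8 medians moved. The alternatives for CCR2, CYSLTR1 and the alike and opposed genes were chosen after seeing the data.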
